A study of Homo sapiens with 43 samples.

Results

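The genes FOSL1, FOSL2, FOS, JUN, JUNB, JUND and ATF3 encode members of the AP-1 family of transcription factors. They were taken as 7 named genes, each with its hg19 position and 20 kb on either side. All 7 windows were read in 27 peak lists from lung squamous cell carcinoma cell lines. They were set beside the 60712 bins of 50 kb that tile chromosomes 1 to 22 and X, bases of the windows included. Chromatin immunoprecipitation followed by sequencing had been done for H3K27ac, an acetylation of histone H3 found at promoters and enhancers in use, and for 3 transcription factors, Sox2 and p63 of squamous and progenitor cells and Brn2 of neural cells. Set A was LK2 and NCI-H520, with ChIP for H3K27ac, Sox2 and Brn2. Set B was KNS62, HCC95 and HCC2814, with H3K27ac and Sox2, and set C was Calu-1, EBC-1, HARA, HCC2279, HCC2450, LC-1/SQSF, NCI-H2887 and SQ-1, with H3K27ac alone. A pair of LK2 derivatives, LK2_DNp63 and LK2_GFP, carried Sox2 and H3K27ac lists, with a p63 list for LK2_DNp63. DNp63 usually denotes the short p63 isoform of basal epithelial cells and GFP a fluorescent control protein, and the labels do not say how the derivatives were made, with which promoter or whether they are clones. All lines were grown in the same medium without a listed treatment. The sets follow which ChIP was done, not which factors a line expresses.

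AP-1 proteins bind DNA as dimers, often of a Fos-type or ATF-type protein with a Jun-type protein, and they are induced by growth factor, stress and wound signals. In squamous epithelium and in many carcinomas they occupy enhancers beside lineage factors such as p63. FOS, JUN, JUNB and ATF3 are immediate early genes, whereas FOSL1 and FOSL2 encode the Fos-related antigens, which are induced later and last longer, and JUND is expressed more evenly.

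The 17 H3K27ac lists held 16470 to 43480 peaks covering 24.65 to 73.724 Mb, with both LK2 libraries (29.117 and 24.65 Mb) at the low end, and the Sox2 lists held 4217 to 14048, the Brn2 lists 1298 to 4819 and the p63 list 3159 peaks. The lists hold no read counts, so the depth is unknown, and a gene without a listed peak may still carry signal under the threshold of the peak caller. LK2 and NCI-H520 had 2 H3K27ac libraries each and every other line 1. The labels do not say that libraries came from separate cultures, so a p-value covers the spread of these samples alone, part of which may be technical. Markers of squamous and other cell types were not analysed here.

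Promoter sequences, which were not placed against the hg19 peaks, show which AP-1 and partner letters lie around the annotated starts of these genes. They were matched by symbol in RefSeq (GRCh38.p14) for 6 of the 7 genes, and 4 are printed, FOS because its start region was shorter in every set A library than in any other line, FOSL2 because its window held more H3K27ac in LK2_DNp63 than in LK2_GFP, and JUN and JUND because Sox2 peaks of 2 lines overlapped in their windows. Each runs 5′ to 3′ along transcription over the 250 bases before the start, and for FOSL2 over 11 further bases to the end of its AP-1 letters.
FOS (chr14:75278578-75278827, plus strand): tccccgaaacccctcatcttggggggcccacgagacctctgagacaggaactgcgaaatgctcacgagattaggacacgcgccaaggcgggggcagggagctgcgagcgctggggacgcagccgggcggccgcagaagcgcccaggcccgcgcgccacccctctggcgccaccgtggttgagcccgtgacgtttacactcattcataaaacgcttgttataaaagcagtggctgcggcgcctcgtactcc
FOSL2 (chr2:28392608-28392868, plus strand): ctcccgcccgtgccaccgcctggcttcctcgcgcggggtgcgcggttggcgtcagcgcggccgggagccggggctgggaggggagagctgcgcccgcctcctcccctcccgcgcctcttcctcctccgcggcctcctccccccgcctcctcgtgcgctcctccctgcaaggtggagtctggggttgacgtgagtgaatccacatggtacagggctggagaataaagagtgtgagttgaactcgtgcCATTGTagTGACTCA
JUN (chr1:58784048-58784297, minus strand): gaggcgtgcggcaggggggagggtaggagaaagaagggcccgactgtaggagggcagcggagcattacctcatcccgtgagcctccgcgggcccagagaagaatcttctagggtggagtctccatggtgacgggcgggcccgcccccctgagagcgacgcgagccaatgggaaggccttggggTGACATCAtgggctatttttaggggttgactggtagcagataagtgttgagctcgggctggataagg
JUND (chr19:18281623-18281872, minus strand): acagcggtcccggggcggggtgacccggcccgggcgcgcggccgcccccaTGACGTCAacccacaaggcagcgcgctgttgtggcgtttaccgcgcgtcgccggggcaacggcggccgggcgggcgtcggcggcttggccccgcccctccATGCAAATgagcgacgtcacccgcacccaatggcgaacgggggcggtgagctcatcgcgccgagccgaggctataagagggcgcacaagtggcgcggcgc
Capitals mark the letters searched on both strands of the full 300 bases from 250 before to 50 after the start, which were TGANTCA (the AP-1 site), TGACGTCA (the cyclic AMP response element, CRE), TGACATCA (a CRE-like form known from the JUN promoter), ATGCAAAT (the octamer of POU factors) and CATTGT (a Sox core). None of these matches overlaps another. FOSL2 held TGACTCA at position 5 after the start and CATTGT at position -4, JUN held TGACATCA at -67, and JUND held TGACGTCA at -200 and ATGCAAAT at -100. None of these letters was found in the windows of FOS and JUNB, and the upstream one of the 2 ATF3 entries held TGACATCA at -123. Of 35116 promoters of the same length, 7.71% held TGANTCA, 1.85% TGACGTCA, 2.61% TGACATCA, 1.77% ATGCAAAT and 10.8% CATTGT. These are matches of letters and were not tested as binding sites.

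H3K27ac at some AP-1 genes was shorter in set A than in the other lines. FOS and FOSL1 were the 2 of 7 members called lower in set A against the 11 other lines, where 5.93% of all windows tested were called lower, and FOSL2 was lower in both set A lines than in every other line without passing the test. JUNB also did not pass, and its lengths lay under all others before scaling and overlapped after it. JUN, JUND and ATF3 overlapped between the sets. No member was called higher in set A in any comparison. Distances are given in kb from the gene start, negative before it and positive after it along transcription.

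FOS, an immediate early gene, lies at chr14:75745000-75749000 in hg19. In set A its 44 kb window held 0.912 and 0 kb of H3K27ac peaks in LK2 replicates 1 and 2, and 0 and 2.039 kb in NCI-H520 replicates 1 and 2. In set B it held 5.976 kb in HCC95, 7.763 kb in KNS62 and 3.397 kb in HCC2814, and in set C 3.417 kb at the lowest (EBC-1), 5.38 kb at the median and 11.86 kb at the highest (LC-1/SQSF). All 4 set A libraries lay under every library of set B and set C, and 1 library of each set A line listed nothing. To compare lines, the length was scaled to an equal total per line and to 50 kb of window, repeat libraries of a line were averaged, and log2(length + 1000 bp) was tested with limma over 9960 windows and bins. FOS then had 1.17 kb ± 0.201 in set A (SD, n = 2 lines), against 7.11 kb ± 0.356 in set B (n = 3) and 6.78 kb ± 2.80 in set C (n = 8). The log2 difference of set A minus the 11 other lines was -1.80 (SE 0.32, limma adjusted p = 0.00209). It was -1.90 against set B (SE 0.39, limma adjusted p = 0.00912) and -1.77 against set C (SE 0.34, limma adjusted p = 0.00424).

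The shorter length at FOS was spread over 3 merged regions. The region at -1.883 to 4.335 kb was acetylated in all 13 lines, and it held 0.34 and 0 kb in LK2, 0 and 0.588 kb in NCI-H520, 1.274 to 2.995 kb in set B and 0.647 to 5.958 kb in set C. The region at 15.048 to 18.316 kb was acetylated in all 11 other lines (1.424 to 3.185 kb) and in set A only in LK2 replicate 1 (0.572 kb). The region at -20.411 to -17.98 kb was likewise present in all 11 other lines, and in set A only in NCI-H520 replicate 2 (1.451 kb). No base of the FOS window was acetylated in all 13 lines. A peak within 2 kb of the start was listed in 14 of the 17 libraries, and the libraries without one were LK2_DNp63, LK2 replicate 2 and NCI-H520 replicate 1.

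FOSL1, whose product is the main Fos-type partner of Jun proteins in many invasive carcinoma lines, lies at chr11:65660000-65668000 on the minus strand. Its 48 kb window held 5.747 and 1.91 kb of H3K27ac peaks in LK2 and 3.462 and 6.85 kb in NCI-H520. Set B had 13.982 kb in HCC95, 18.737 kb in KNS62 and 9.954 kb in HCC2814. Set C lay highest, with 11.915 kb in LC-1/SQSF and 13.768 kb in HARA, 20.162 kb in NCI-H2887 and 29.684 to 33.858 kb in EBC-1, HCC2450, SQ-1, HCC2279 and Calu-1. Before scaling, 2 set C lines thus fell within the range of set B and 6 lay above it. Nor did any library of set A reach the lowest of the other lines before scaling. After scaling, LC-1/SQSF (10.3 kb) and HARA (13.6 kb) lay under all of set B (14.6 to 18.9 kb), while the other 6 set C lines stayed above it. Scaled per 50 kb, FOSL1 had 7.23 kb ± 1.47 in set A (SD, n = 2 lines), 16.7 kb ± 2.19 in set B (n = 3) and 26.5 kb ± 9.89 in set C (n = 8). The log2 difference of set A minus the 11 other lines was -1.50 (SE 0.44, limma adjusted p = 0.0407), that against set C was -1.64 (SE 0.43, limma adjusted p = 0.0238), and that against set B was -1.11 (SE 0.50, limma adjusted p = 0.215). Set B minus set C was -0.53 (SE 0.37, limma adjusted p = 0.566).

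Ranks were taken among the 9960 windows and bins tested, whose mean scaled length over the 13 lines reached 2000 bp. FOSL1 ranked in the top 11.8% in LK2 and 16.0% in NCI-H520, against 2.77% in HCC95, 0.843% in KNS62 and 1.42% in HCC2814 of set B. In set C it ranked in the top 7.15% in LC-1/SQSF, 3.77% in HARA, 0.221% in HCC2450, 0.120% in NCI-H2887, 0.0803% in SQ-1 and in HCC2279, 0.0602% in Calu-1 and 0.0100% in EBC-1, so that LC-1/SQSF and HARA lay nearer to set A than the other set C lines did. The widest peak within 2 kb of the start was 1.385 and 0.942 kb wide in LK2, and neither NCI-H520 library listed one. It was 2.017 to 2.499 kb wide in set B, and in set C 2.22 kb in HARA, 2.503 kb in LC-1/SQSF, 3.054 kb in NCI-H2887, 5.334 kb in EBC-1, 7.349 kb in SQ-1, 11.006 kb in HCC2279, 19.466 kb in HCC2450 and 20.37 kb in Calu-1. In the 5 lines with the widest such peak, peaks covered 18.121 to 19.944 kb of the 20 kb upstream flank. Of the 8 kb gene they covered 4.522 kb in HCC2450 and 6.886 to 7.894 kb in the others. The 20 kb before the start were also lowest in set A, with 0.968 to 2.164 kb in set A libraries, 5.947 to 9.645 kb in set B, 3.9 to 5.64 kb in LC-1/SQSF and HARA and 11.552 to 19.944 kb in the other 6 set C lines. The gene itself held 0 kb in both NCI-H520 libraries, 1.385 and 0.942 kb in LK2, and 7.894 kb of its 8 kb in Calu-1. RefSeq (GRCh38.p14) places 6 other protein-coding genes (EFEMP2, CTSW, FIBP, CCDC85B, C11orf68 and DRAP1) in the neighbourhood covered by this window, so its length is not of FOSL1 alone.

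**Figure D1:**
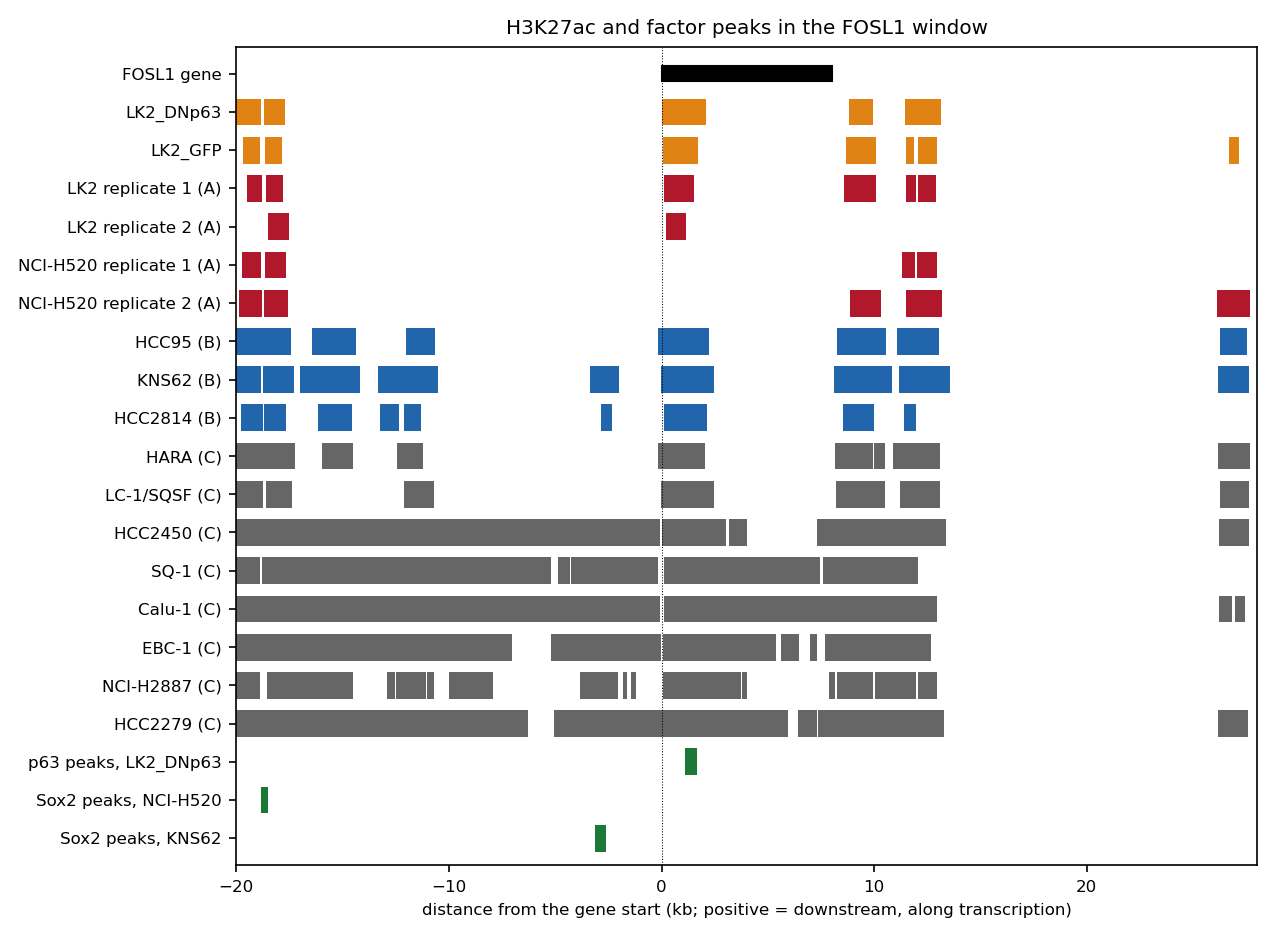
H3K27ac peaks (one row per library, orange for LK2 derivatives, red for set A, blue for set B, grey for set C) and factor peaks (green) in the FOSL1 window, against distance from the gene start in kb, with the gene in black. Set A libraries hold 1.91 to 6.85 kb in short peaks, with none over the gene in NCI-H520, whereas peaks run together over most of the upstream flank and the gene in HCC2450, SQ-1, Calu-1, EBC-1 and HCC2279.

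FOSL2, the other Fos-related antigen gene, lies at chr2:28616000-28638000. Its 62 kb window held 5.009 and 4.514 kb in LK2 and 3.978 and 4.537 kb in NCI-H520, against 10.161 to 15.952 kb in set B and 7.892 to 16.456 kb in set C. The 4 set A libraries were close to each other and under all others. After scaling, FOSL2 had 6.13 kb ± 3.03 in set A (SD, n = 2 lines), with 8.27 kb in LK2 and 3.99 kb in NCI-H520, and 10.4 kb ± 1.64 in the 11 other lines. The log2 difference was -0.73 (SE 0.24, limma adjusted p = 0.0677), and it was -0.91 against set B (limma adjusted p = 0.0657) and -0.67 against set C (limma adjusted p = 0.0952). Without the scaling the difference from the 11 other lines was -1.26 and passed the test (limma adjusted p = 0.00941), while FOSL2 depended on which set A line was kept. It was -1.18 without LK2 (limma adjusted p = 0.0200) and -0.28 without NCI-H520 (limma adjusted p = 0.605), and in either fit set A is 1 line that is assumed to vary like the other groups.

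A region at -7.665 to 7.774 kb, over the FOSL2 start, was acetylated in all 13 lines. Set A libraries had 3.978 to 5.009 kb there, all in 1 peak, and the other lines 7.188 to 15.374 kb. The 6 regions acetylated in no set A line lay outside it. The region at -17.201 to -13.288 kb was acetylated in HCC95, KNS62, HCC2814, HARA and LC-1/SQSF (2.069 to 3.914 kb), and the region at 12.926 to 18.146 kb, within the gene, in KNS62, HCC2814, HARA, SQ-1, Calu-1 and NCI-H2887 (0.418 to 5.221 kb).

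Among the Jun genes, JUNB had the longest H3K27ac in every library but LK2 replicate 2, and its unscaled lengths were shorter in set A. JUNB, at chr19:12902000-12904000, encodes a Jun protein that in many settings restrains the others. Its 42 kb window held 9.756 and 3.267 kb in LK2 and 8.116 and 8.353 kb in NCI-H520, against 16.291 to 23.237 kb in set B and 13.137 to 23.699 kb in set C. These lengths did not overlap between set A and the others. After scaling they did, with 13.7 kb ± 3.31 in set A (SD, n = 2 lines) and 22.8 kb ± 5.61 in the 11 other lines (log2 -0.68, SE 0.30, limma adjusted p = 0.175). For the gene without flanks the JUNB difference changed sign to 0.36. Unscaled, this 2 kb gene held 1.52 to 1.696 kb in set A libraries, 1.954 to 2 kb in set B and 1.673 to 2 kb in set C. Full cover is the upper limit there, before each length is scaled by the total of its line. The shorter length in set A lay mainly before the start, where the 20 kb flank held 5.39 and 0 kb in LK2 and 1.565 and 1.838 kb in NCI-H520, against 11.021 to 14.041 kb in set B and 8.233 to 14.322 kb in set C. JUNB ranked in the top 0.131% to 6.47% of the windows and bins tested in every line, and RefSeq places HOOK2, PRDX2, THSD8 and RNASEH2A beside it.

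JUN and JUND had an acetylated start region in every line. At JUN (chr1:59246000-59250000, minus strand), the founding member of the Jun proteins, the region at -2.956 to 5.394 kb held 3.652 to 4.565 kb in set A libraries, 3.668 to 6.11 kb in set B and 4.736 to 6.927 kb in set C. At JUND (chr19:18390000-18392000, minus strand), which encodes the Jun protein of resting cells, the start region held 2.917 to 3.914 kb in set A libraries, 2.628 to 4.247 kb in set B and 2.599 to 4.501 kb in set C. The whole windows overlapped between the groups. JUN had 7.36 kb ± 2.55 in set A (SD, n = 2 lines) and 8.97 kb ± 3.95 in the 11 other lines (log2 -0.19, SE 0.40, limma adjusted p = 0.785). JUND had 7.30 kb ± 1.55 in set A and 8.37 kb ± 3.37 in the 11 other lines (log2 -0.11, SE 0.34, limma adjusted p = 0.857). The signs of both differences turn without flanks (0.41 each) and without NCI-H520 (0.12 for JUN, 0.077 for JUND), and that of JUND with the upper 50% of each list (0.10). Unscaled, the 2 kb JUND gene held 1.279 to 2 kb in set A libraries. It held 1.396 to 2 kb in set B and 1.447 to 2 kb in set C.

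Outside the start region, the Jun windows differed within set C. At JUN a region at 17.199 to 23.795 kb was acetylated in no line of set A or set B, and in Calu-1 (6.597 kb), HCC2279 (4.959 kb), LC-1/SQSF (4.098 kb), SQ-1 (2.896 kb) and NCI-H2887 (1.447 kb) of set C. At JUND a region at -24.824 to -16.163 kb was acetylated in no set A line, in KNS62 of set B (1.909 kb) and in 7 of 8 set C lines, at up to 8.662 kb in Calu-1. The JUND region runs past the window, which ends 20 kb before the start, so part of the length in Calu-1 lies outside it. Both regions were described after their values were seen.

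ATF3, a stress-induced partner of Jun proteins, lies at chr1:212739000-212794000 and had little H3K27ac for the length of its window. Its 95 kb window held 5.822 and 5.649 kb in LK2 and 3.303 and 5.864 kb in NCI-H520, against 7.387 kb in HCC95, 5.532 kb in KNS62 and 1.916 kb in HCC2814, and 0.343 kb (NCI-H2887) to 11.319 kb (Calu-1) in set C with a median of 6.28 kb. Before scaling set A lay inside the range of the others. On the scaled measure LK2 had 6.52 kb, above each of the 11 other lines (at most 4.74 kb, in LC-1/SQSF), and NCI-H520 had 2.79 kb. After scaling ATF3 had 4.65 kb ± 2.64 in set A (SD, n = 2 lines) and 3.10 kb ± 1.29 in the 11 other lines, and the log2 difference, 0.47 (SE 0.45, limma adjusted p = 0.536), became -0.085 without scaling and -0.024 without LK2. A peak within 2 kb of the annotated start was listed in 14 of 17 libraries and was at most 2.124 kb wide. RefSeq has 2 promoter entries for ATF3, and only the start of the hg19 position used here was examined for peaks. A region at 39.398 to 44.867 kb, within the gene, was longer, with 2.967 and 3.191 kb in LK2, 0.816 and 3.306 kb in NCI-H520, 0.617 to 4.32 kb in set B and 0 to 5.421 kb in set C, where SQ-1 and NCI-H2887 had none.

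**Figure D2:**
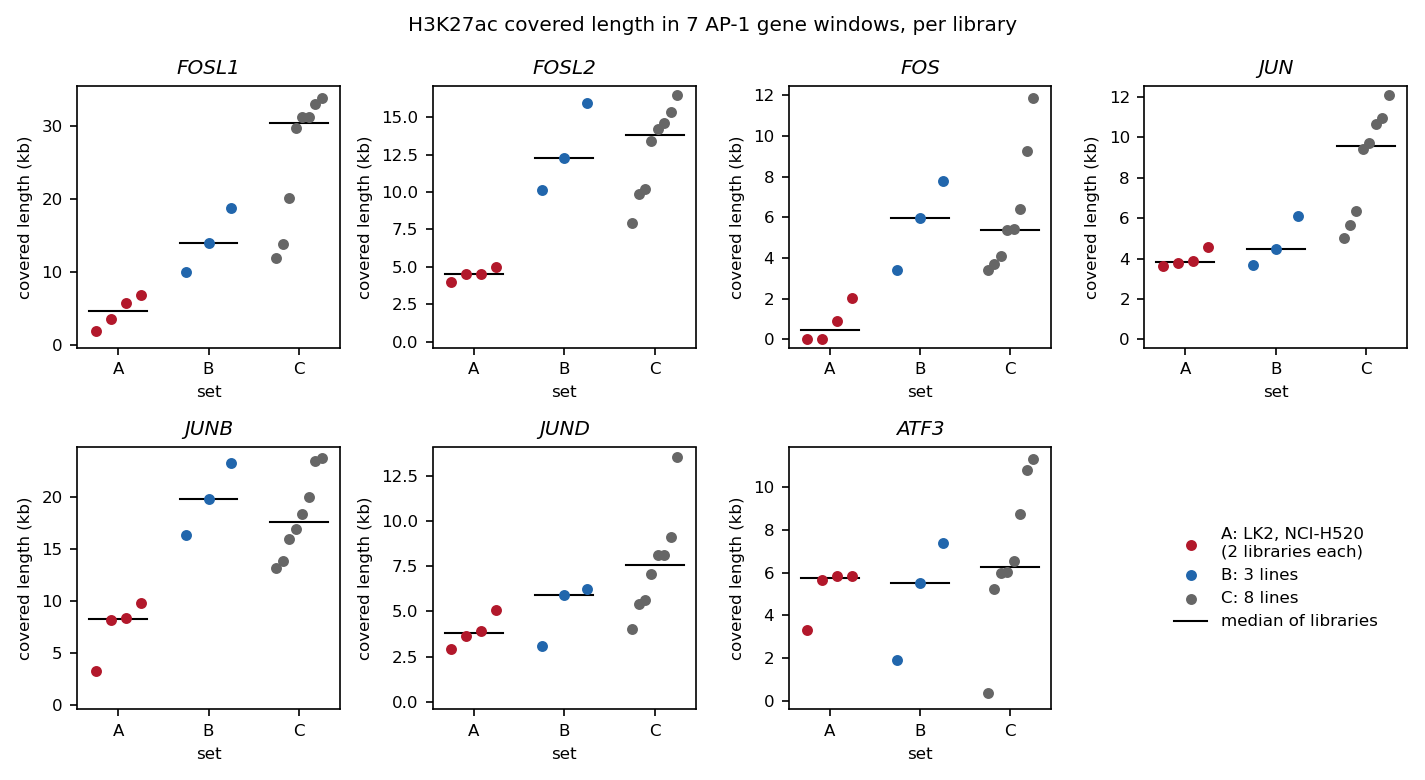
Length covered by H3K27ac peaks (kb, unscaled) in each member's window, 1 point per library, with sets A, B and C from left to right and a line at the median of the libraries. Set A points lie under all points of set B and set C for FOSL1, FOSL2, FOS and JUNB and overlap them for JUN, JUND and ATF3.

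Counts of members were set beside those of all windows. Against the 11 other lines 2 of 7 members were called lower, where limma called 5.93% of 9960 windows lower and 4.78% higher (10.7% in all). Against set B it was 1 of 7 lower, where 5.10% of windows were lower and 3.20% higher (8.30% in either direction), and against set C 2 of 7, where 6.59% were lower and 5.37% higher (12.0% in either direction). Values of the lines did not overlap and were lower in set A for 3 of 7 members against the 11 other lines, where 7.64% of windows did so, for 4 of 7 against set B, where 26.2% did, and for 3 of 7 against set C, where 9.27% did. No member lay higher in set A without overlap, as 6.70%, 12.6% and 9.41% of windows did against the 11 other lines, set B and set C. The median difference of the 7 members was -0.68 against the 11 other lines, with -0.14 over all windows, -0.91 against set B (-0.18 over all) and -0.58 against set C (-0.10 over all). These comparisons share the set A lines, and the 11 other lines are those of set B and set C, so they are not separate evidence. Without scaling the median of all windows moved to -0.61 against the 11 other lines, and FOSL2 and JUNB passed as well, at limma adjusted p = 0.00941 and 0.0136.

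Set B and set C were not told apart at these genes. Limma called 0 of 7 members and 0 of 9960 windows (a background of 0%), and at an unadjusted p under 0.05 it found 0 members and 1195 windows. The members' log2 differences of set B minus set C ran from -0.53 (FOSL1 and JUN) to 0.36 (JUNB), with a median of -0.11, against 0.11 over all windows. Every member overlapped between these sets, where 1.61% of windows lay higher in set B and 0.321% lower without overlap.

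The calls rest on the 2 lines of set A. FOS stayed called against the 11 other lines in 23 of 25 alternatives, and its adjusted p rose to 0.0504 without LK2 and to 0.0582 with equal numbers of top peaks taken per list. FOSL1 lost its call in 13 of 25, among them fits without LK2 (limma adjusted p = 0.193), NCI-H520 (0.333), HCC2450 (0.0519), Calu-1 (0.0561), EBC-1 (0.0537) or HCC2279 (0.0584). Without LK2 or NCI-H520, FOS was not called against set B (limma adjusted p = 0.0835 and 0.0822) or set C (0.0714 and 0.0599), nor FOSL1 against set C (0.139 and 0.243).

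**Figure D3:**
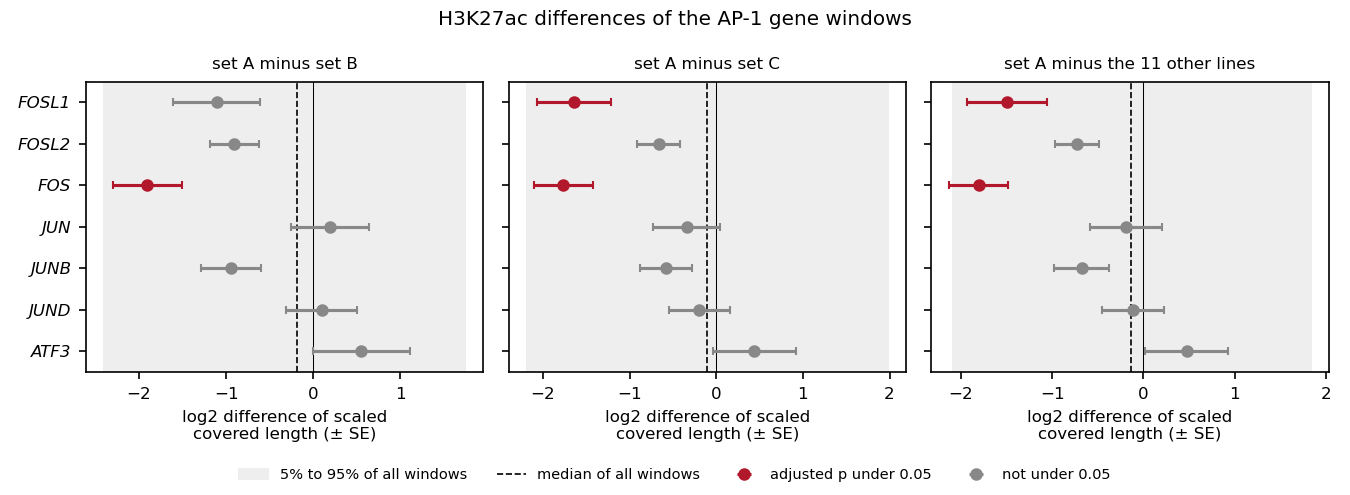
Log2 difference in scaled covered length for set A minus set B, set A minus set C and set A minus the 11 other lines, with bars of 1 SE, red where the limma adjusted p was under 0.05. Grey bands span 5% to 95% of the windows and bins tested, and FOS at -1.90, -1.77 and -1.80 and FOSL1 at -1.11, -1.64 and -1.50 lie inside them.

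Across the 13 lines, the AP-1 windows did not vary as 1 block. Of the 21 pairs of members, scaled lengths of FOSL2 and JUNB had the highest Spearman rho (0.69, n = 13 lines), FOSL1 and FOS had 0.10, and JUNB and ATF3 had the lowest (-0.57). Lines share their library between both genes of a pair, so rho is a description. For each member the 2 bins with the highest rho were picked from all tested bins elsewhere. That choice favours high values, and they were not tested. The bins elsewhere whose length followed FOSL1 most closely lay at chromosome 4, 146650001 to 146700000, and chromosome 7, 87850001 to 87900000 (rho 0.96 each), and those most like FOS at chromosome 22, 21300001 to 21350000 (0.86), and chromosome 9, 124100001 to 124150000 (0.83). For FOSL2 they lay at chromosome 22, 23550001 to 23600000 (0.89), and chromosome 15, 83450001 to 83500000 (0.88). For JUN they lay at chromosome 1, 117650001 to 117700000 (0.93), and chromosome 7, 65400001 to 65450000 (0.87), and for JUNB at chromosome 11, 67250001 to 67300000 (0.93), and chromosome X, 63400001 to 63450000 (0.92). For JUND they lay at chromosome 10, 52350001 to 52400000 (0.90), and chromosome 20, 34000001 to 34050000 (0.89). ATF3 had weaker likenesses, at chromosome 1, 244200001 to 244250000 (0.77), and chromosome 14, 56050001 to 56100000 (0.76).

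LK2_DNp63 was set beside LK2_GFP and LK2 to ask how these genes look in LK2 cells labelled with p63, with 1 library per derivative and so no test. FOSL2 had the largest difference of the 7 members. Its window held 14.633 kb in LK2_DNp63, against 7.611 kb in LK2_GFP and 5.009 and 4.514 kb in LK2. Scaled per 50 kb this was 18.6 kb, against 10.5 kb in LK2_GFP and a mean of 8.27 kb in LK2, a log2 difference of 0.77 from LK2_GFP and 1.08 from LK2. The value from LK2_GFP was at percentile 91.5 of the windows and bins tested. No member passed a 2-fold difference from LK2_GFP in either direction, where 5.35% of windows were at least 2-fold higher and 3.42% at least 2-fold lower. For the gene without flanks FOS was listed at 0 in LK2_DNp63 and so passed it, and against LK2 in place of LK2_GFP FOSL2 passed it.

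The other members differed less. Log2 differences of LK2_DNp63 minus LK2_GFP were 0.019 for FOSL1 (7.021 against 6.392 kb before scaling), 0.15 for FOS (1.023 against 0.798 kb), -0.080 for JUN (4.188 against 4.118 kb), 0.029 for JUNB (9.919 against 8.973 kb), 0.30 for JUND (3.889 against 2.816 kb) and -0.28 for ATF3 (4.861 against 5.712 kb). Without flanks the sign turned for JUN (0.14), JUNB (-0.0094), JUND (-0.060) and ATF3 (0.0061), JUN was 0.020 without scaling, and JUND was -0.18 against LK2 in place of LK2_GFP. After scaling, FOSL1 had 11.5 kb in LK2_DNp63 and 11.4 kb in LK2_GFP. Both lay between the highest line of set A (8.27 kb) and the lowest of set B (14.6 kb), and above LC-1/SQSF of set C (10.3 kb).

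At FOSL2 the added length in the window lay in 2 elements and at the start region. The region at -17.201 to -13.288 kb held 2.881 kb in LK2_DNp63 and 0 kb in LK2_GFP and both LK2 libraries, and it is the region acetylated in all 3 set B lines, HARA and LC-1/SQSF. The region at 12.926 to 18.146 kb held 2.882 kb in LK2_DNp63 and 0 kb in LK2_GFP and LK2. A further region at 41.888 to 47.126 kb, which for LK2_DNp63 lies past the window and adds nothing to its length, held 2.772 kb in LK2_DNp63, 0 kb in LK2_GFP and 0.78 and 0 kb in LK2. The start region held 8.87 kb in LK2_DNp63, 7.611 kb in LK2_GFP and 5.009 and 4.514 kb in LK2.

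The p63 list of LK2_DNp63 had 5 peaks in the windows, 3 of them at FOSL2. Of the 7 windows 3 held a p63 peak, where 12.2% of tested bins of 50 kb did. At FOSL2 they lay at chr2:28600200-28600668 and chr2:28600929-28601654 (centred at -15.57 and -14.71 kb) and chr2:28631807-28632445 (at 16.13 kb), in the first 2 elements named above. The strongest, at -14.71 kb, ranked 550 of 3159 by the authors' score and the others 2991 and 2833. FOSL1 had a p63 peak at chr11:65666310-65666904, at 1.39 kb, within the gene (rank 853), and ATF3 had one at chr1:212769603-212770199, at 30.9 kb (rank 2595). All 5 were acetylated in LK2_DNp63. Of these, 4 were acetylated there and in neither LK2_GFP nor LK2, and the exception was FOSL1, which was acetylated in every LK2-derived library. Of all 3159 p63 peaks, 635 were acetylated in LK2_DNp63 alone among those libraries, which is 20.1% of all and 42.1% of the 1507 acetylated ones. FOS, JUN, JUNB and JUND had no p63 peak in their windows.

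**Figure D4:**
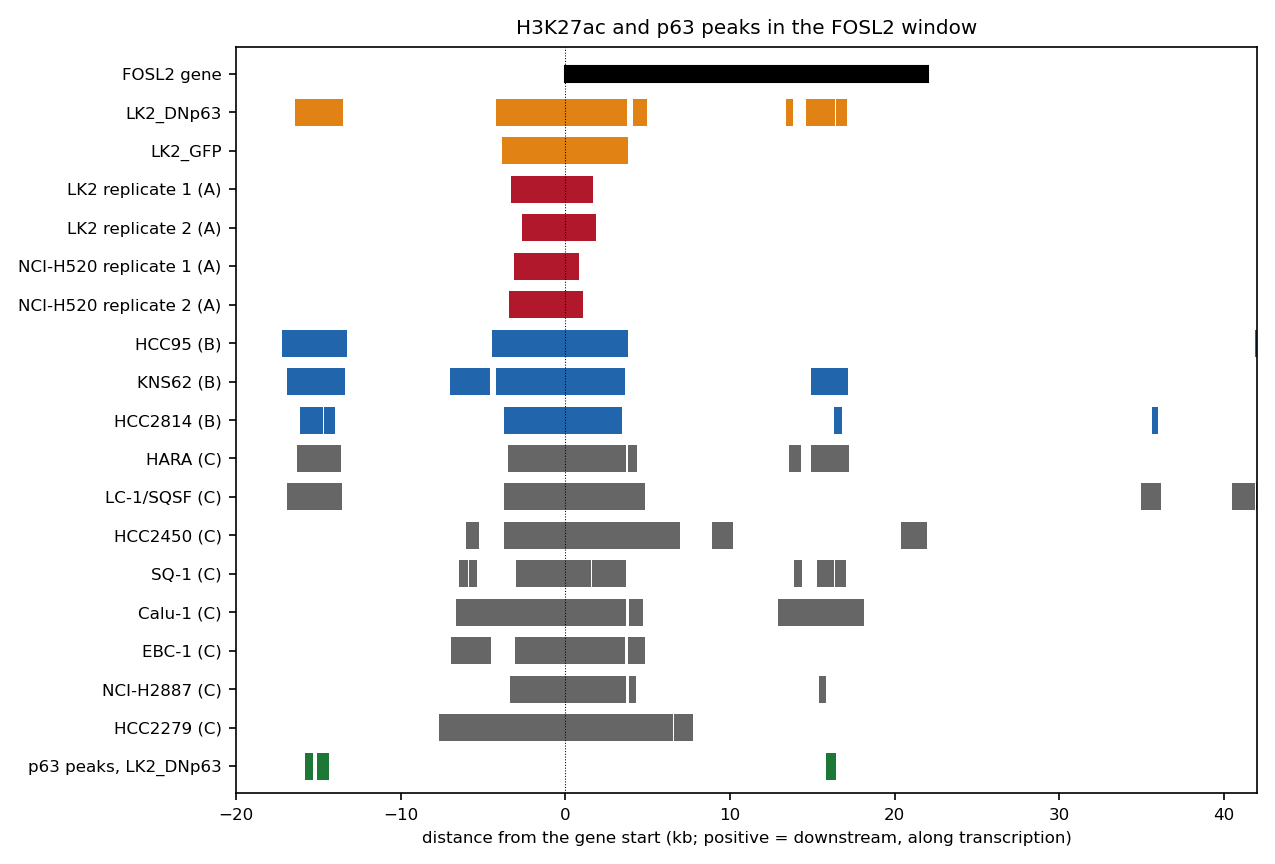
H3K27ac peaks per library (orange for LK2 derivatives, red for set A, blue for set B, grey for set C) and p63 peaks of LK2_DNp63 (green) in the FOSL2 window, against distance from the gene start in kb, with the gene in black. LK2_DNp63 has peaks near 15 kb on both sides of the start, over the 3 p63 peaks, where LK2_GFP and the set A libraries have none.

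Sox2 peaks were found at AP-1 genes in some lines, and none lay in the FOS or FOSL2 windows. NCI-H520 had 5, in 4 of the 7 windows, HCC95 and KNS62 had 2 each, in 2 windows each, and LK2 and HCC2814 had 0. In tested bins of 50 kb a Sox2 peak was present in 32.9% for NCI-H520, 43.6% for HCC95, 30.9% for KNS62, 19.7% for LK2 and 27.6% for HCC2814. LK2_DNp63 had 0 (12.5% of bins) and LK2_GFP had 1 (30.5%). The shares concern bins of 50 kb, while the windows run from 42 to 95 kb.

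At 2 places Sox2 peaks of a set A and a set B line overlapped. After the JUN start, NCI-H520 had a peak at chr1:59245373-59245753 and HCC95 at chr1:59245381-59245819, ranking 3299 of 12048 and 4875 of 14048. The site was acetylated in HARA, HCC95, LC-1/SQSF, NCI-H2887 and SQ-1, and in NCI-H520 it lay 1063 bp from the nearest H3K27ac peak. Just before the JUND start, NCI-H520 had a peak at chr19:18392375-18392696 and HCC95 at chr19:18392307-18392699, ranking 7177 and 10535, and NCI-H520 had a second at chr19:18390482-18390914. The remaining Sox2 peaks of set A and set B lines were found in 1 line each. NCI-H520 had peaks at -18.68 kb at FOSL1 and 42.9 kb at ATF3, and KNS62 had peaks at -2.85 kb at FOSL1 and -2.29 kb at JUNB.

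Brn2 had a single peak in these windows, in LK2 at chr19:12885761-12886063, at -16.09 kb from the JUNB start (rank 2115 of 4819), in chromatin acetylated in 12 of 13 lines. NCI-H520 had none. Of the tested bins 17.2% held a Brn2 peak of LK2 and 6.51% one of NCI-H520. Brn2 chromatin was prepared with another cross-linker and with micrococcal nuclease, unlike the other lists. Of the 16 factor peaks at AP-1 genes, 15 lay in H3K27ac peaks of their own line, while 38.3% to 66.9% of whole factor lists did. Whole lists are not limited to windows around genes, so these shares are not alike, and their difference was not tested. An overlap of 1 bp in any library of the line was enough. The Brn2 peak of LK2 lay in H3K27ac of replicate 1 and not of replicate 2.

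ATF3 held the region found in LK2 alone among the 13 lines. It lay at 67.009 to 68.683 kb, past the gene end, with 1.189 and 1.675 kb in LK2, 0.768 kb in LK2_GFP and 0 kb in LK2_DNp63, NCI-H520 and the 11 other lines. The Sox2 peak of LK2_GFP at chr1:212806186-212807097 lay in it, and neither LK2 nor LK2_DNp63 had a Sox2 peak there. Conversely, the ATF3 region at 29.309 to 32.279 kb held 0.779 kb and the p63 peak in LK2_DNp63, and none in LK2_GFP and set A, against 1.1 to 2.848 kb in HCC95 and 6 set C lines.

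**Figure D5:**
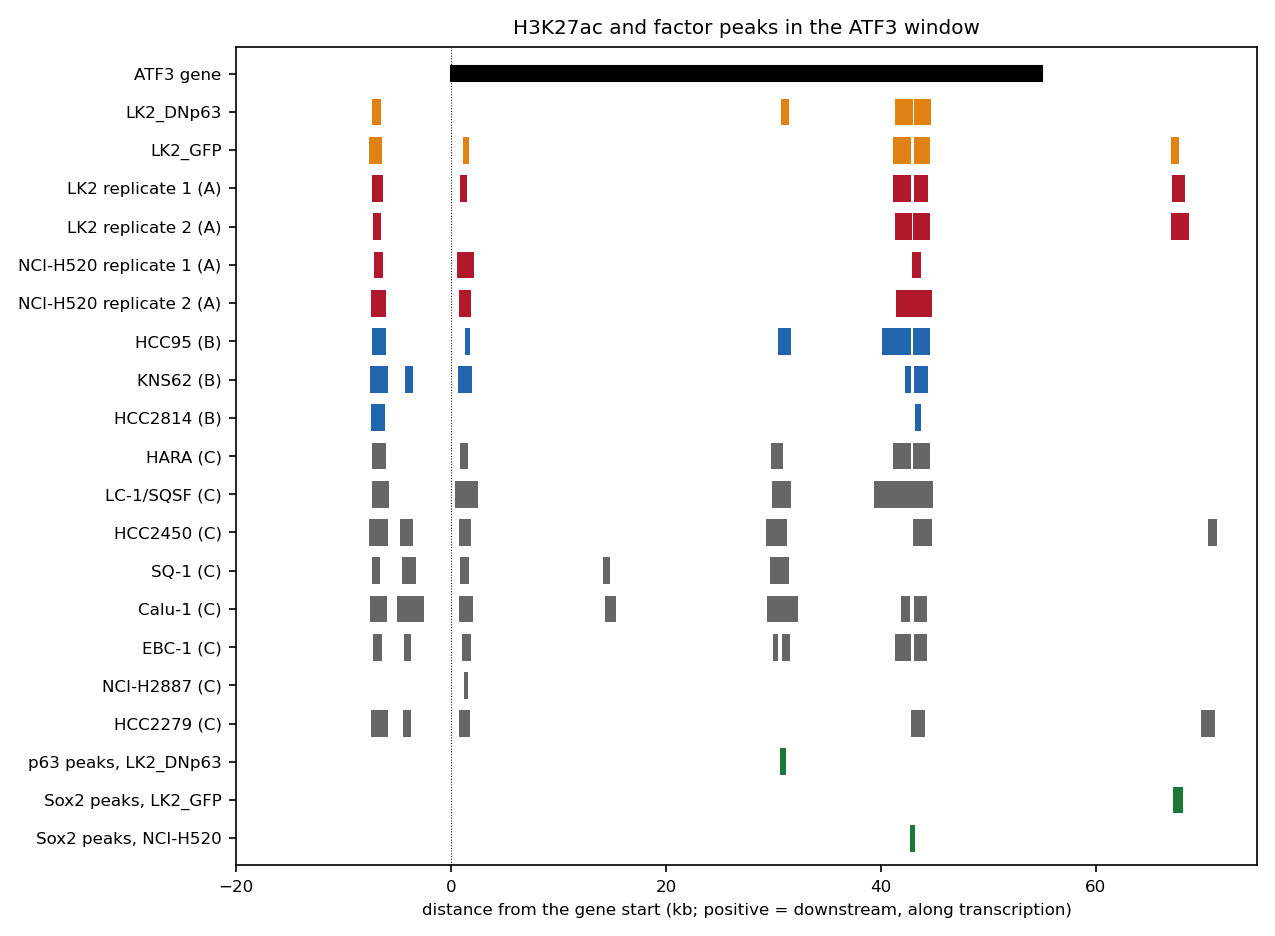
H3K27ac peaks per library (colours as for the FOSL2 map) and factor peaks (green) in the ATF3 window, against distance from the annotated gene start in kb. The region near 67 kb is listed for LK2 and LK2_GFP only and holds the Sox2 peak of LK2_GFP, and the region near 30 kb, with the p63 peak, is listed for LK2_DNp63 but not for LK2_GFP or set A.

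Counted over all 7 windows, the 13 lines gave 39 merged H3K27ac regions. Of these 7 were acetylated in all 13 lines, 21 in no set A line, 10 in 1 line and 1, in LK2, in set A alone. Set A is 2 of the 13 lines, and the same shares over all merged regions were not computed. These counts are therefore a description and not a result about AP-1 genes. Bases acetylated in every line amounted to 4.115 kb at FOSL2, 3.128 kb at JUN, 3.041 kb at FOSL1, 2.81 kb at JUNB and 2.42 kb at JUND, and to none at FOS and ATF3. A start peak was listed in all 17 libraries for FOSL2, JUN, JUNB and JUND, and in 15 of 17 for FOSL1.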

How the data were processed

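H3K27ac, Sox2, Brn2 and p63 ChIP-seq was done in lung squamous cell carcinoma lines, with 43 labelled samples. The 27 samples with a peak list were used, and the 16 inputs were not analysed here. The submitters' processing notes name Bowtie2 and the build hg19 (GRCh37). The authors deposited, per list, peak positions and a score that starts at 50, with names that begin with MACS. How peaks were called (version, threshold, inputs) is not given in the sources used here. Within a list, peaks were ranked by score, and scores had no other use. Of 652792 deposited peaks, 2092 lay outside chromosomes 1 to 22 and X and were left out.

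The members and lists were chosen with earlier results of these data known. Each window is the gene at 1 kb resolution plus 20 kb on both sides, so gene starts are known to 1 kb on hg19. Strands and neighbours came from RefSeq (GRCh38.p14) and no coordinates were converted. The FOSL1 strand was entered by hand. Covered length was scaled to 57.7725 Mb per line and per 50 kb, and log2(length + 1000 bp) was tested with limma 3.58.1 (R 4.3.3; mean-variance trend, Benjamini-Hochberg adjustment over 9960 windows and bins whose mean reached 2000 bp), with the line as the unit and an adjusted p under 0.05 as the threshold. Differences of windows with little length are understated. The fit was checked on simulated data. Peaks shared a site with 1 bp of overlap. All 7 members are named, and 2 bins most like each by Spearman rho. Possible run codes in the sample descriptions joined no more than 2 libraries, so no comparison was made within them. Other scalings, flanks, pseudocounts, filters, peak numbers and left-out lines were tried. Python 3.11.15, numpy 2.4.6 and pandas 2.3.3 were used. Related AP-1 genes and AP-1 targets were not analysed here.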

Additional observations from a re-analysis of the deposited data

Results flagged for a closer look

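The width of the H3K27ac peak at the FOS start was flagged because 1 of the 8 set C lines stood apart. It was 5.958 kb in LC-1/SQSF, against 2.676 kb in the nearest other line and 0.647 kb in the narrowest, so that the gap made up 0.618 of the whole range. LC-1/SQSF also had the highest length in the whole FOS window, 11.86 kb. Of the 14 groups checked 1 was flagged, and chance flags about 1 in 20.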

How the results depend on the processing

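Members called between set A and set B numbered 1, and 3 without scaling, 0 for the gene without flanks, 2 with flanks of 50 kb, 0 with the same number of top peaks, 2 with replicate 2 of LK2 and NCI-H520, 2 with the compared sets alone, 0 with replicate 1 of LK2 and replicate 2 of NCI-H520 (chosen after seeing the data) and 0 to 1 with a line left out (0 without NCI-H520). Between set A and set C they numbered 2, and 4 without scaling, 1 with the same number of top peaks, 1 with the mixed replicates, 3 with replicate 2 of LK2 and NCI-H520 and 0 to 2 with a line left out (1 without LK2, 0 without NCI-H520). Against the 11 other lines they numbered 2, and 4 without scaling, 1 with a pseudocount of 200 or 5000 bp, 1 without the filter, 0 with the same number of top peaks, 1 with replicate 1 alone, 3 with replicate 2 alone, 3 without flanks, 1 with the mixed replicates and 1 to 2 with a line left out. Some counts stayed at 2 while the members changed. Against set C, FOSL1 and FOSL2 were called without flanks, where FOS was not (limma adjusted p = 0.0719). With flanks of 50 kb FOSL2 and FOS were called against set C, where FOSL1 was not (limma adjusted p = 0.103). The same flanks called FOSL2 and FOS against the 11 other lines. Between set B and set C the number was 0 in every alternative run. The cause of these changes was not tested.

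Signs turned for JUNB without flanks (set A minus set B 0.15, minus set C 0.43, minus the 11 other lines 0.36), and, against the 11 other lines, for JUN (0.41 without flanks, 0.12 without NCI-H520, -0.51 to 0.12 with a line left out), JUND (0.41 without flanks, 0.10 with the upper 50% of each list by score, 0.077 without NCI-H520, -0.31 to 0.077 with a line left out) and ATF3 (-0.085 without scaling, -0.024 without LK2, -0.024 to 0.97 with a line left out). FOS and FOSL1 were lower in set A in all alternatives run, at -2.30 to -0.92 and -2.69 to -0.84 against the 11 other lines. For LK2_DNp63 minus LK2_GFP, 0 members passed a 2-fold difference, 1 without flanks (FOS, listed at 0 in LK2_DNp63) and 1 with LK2 in place of LK2_GFP (FOSL2). Factor peaks in the windows numbered 16, and 5 without flanks, 35 with flanks of 50 kb, 5 from the upper 50% of each list and 7 with equally long Sox2 lists. With at least 50% of a factor peak required in H3K27ac, 14 of them lay there.

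No paired analysis was possible because the replicate numbers of LK2 and NCI-H520 name repeat libraries of lines in the same set. Depth is unknown, which limits every absence of a peak.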
